A study of Mus musculus with 28 samples.

Results

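The mouse mitochondrial genome encodes a small set of membrane proteins of the respiratory chain, and 10 of them are described here across single embryos with and without CTCF: mt-Nd1, mt-Nd2, mt-Nd3, mt-Nd4 and mt-Nd5 of complex I, mt-Cytb of complex III, mt-Co1, mt-Co2 and mt-Co3 of complex IV, and mt-Atp6 of complex V. They are a fixed list of genes, matched from Ensembl identifiers to symbols, and all 10 had a row in both deposited tables, among 15582 gene rows for blastocysts and 16745 for morulae. All 10 passed the filter on low values, which asked for at least 10 reads per 1000000 (CPM) in at least 3 embryos of a stage. The annotation of mitochondrial DNA holds 13 protein-coding genes, and the other 3 (mt-Nd4l, mt-Nd6 and mt-Atp8) are given only where they touch a member.

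Mitochondrial DNA is a circle that is transcribed as long precursor RNAs, from which most messengers are released by cutting out the transfer RNAs that lie between them and are then given a short poly(A) tail. Their products are built into complexes together with many nuclear-encoded subunits, so the amounts of both sets have to be matched. In the early mouse embryo mitochondria are inherited from the oocyte, and oxidative respiration becomes more active towards the blastocyst.

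All embryos were single whole CD1 mouse embryos, read from polyadenylated RNA. The blastocysts were labelled MZ_KO (n = 3), M_KO (n = 4), het (n = 4) and WT_flfl (n = 3), and the morulae MZKO (n = 6), del (n = 4) and het (n = 3). What the codes stand for is not written in the labels. By common usage M means that the mother's allele was deleted, MZ that the embryo's own was lost as well and flfl that both alleles are floxed, and the series title names CTCF, which binds insulators and halts cohesin loops. The sources used here name neither the Cre driver nor the age of the mothers. The titles carry a prefix that is shared by MZ_KO and M_KO blastocysts (C7), by het and WT_flfl blastocysts (N89) and by del and het morulae (N2), while MZKO morulae have their own (C50). All blastocyst libraries analysed here were in sequencing batch 1 and all morulae in batch 2, so stage and batch cannot be told apart. A repeat library of blastocyst het 3 was in batch 2, but it had no column and was not analysed. Each stage was scaled on its own. Litters are not given, so embryos of a group may be littermates and p-values measure only the spread between these embryos.

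Read totals ran between 7377507 and 27884350 per blastocyst and between 1635553 and 20414013 per morula, the lowest being del 6. Ctcf itself was at 2.92 to 4.23 CPM in MZ_KO, 53.2 to 89.4 in M_KO, 55.1 to 78.9 in het and 91.6 to 102 in WT_flfl blastocysts. In morulae it was at 0 to 8.68 CPM in MZKO, 0 to 5.81 in del and 26.1 to 54.6 in het. The MZKO and del ranges overlapped (log2 fold change 0.70, 95% interval -1.02 to 2.43), and MZKO against het did not pass (log2 fold change -3.23, adjusted p = 0.169) although no MZKO embryo reached the lowest het embryo. Reads of the 15 mitochondrial DNA rows made up 0.861% to 1.80% of the scaled library in blastocysts and 1.51% to 3.37% in morulae. Haemoglobin RNA reached 3.43% in WT_flfl 1, 3.10% in het 6 and 1.52% in morula het 1. In whole-embryo RNA, fewer cells of a type and less RNA per cell cannot be told apart.

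Several members are also present as near-identical copies in the nuclear genome, and reads can be placed on either. A search of the annotated nuclear transcripts (GENCODE M21, GRCm38) at a minimum of 90% identity over 100 bases found such copies for 9 of the 10 members and none for mt-Nd1. For 6 members the copy was at least 99% identical, and all 6 copies lie in 1 run of unprocessed pseudogenes on the minus strand of chromosome 1, between bases 24611535 and 24616197. Gm28437 matched mt-Co3 without a difference over 783 bases, Gm28661 matched mt-Co2 over 681, Gm10925 matched mt-Atp6 over 678 and Gm28439 matched mt-Nd4 over 876. The other 2 copies differ from the member at 1 base in the part that aligned, and the sequences from that base on are shown because, within the aligned part, no other base tells a read of the member from a read of the copy. Capitals mark the base that differs, and positions in the tokens are counted from 1 at the first base of the member. Gm28438 differs from mt-Nd3 by T3C over 345 bases, at position 9461 of chromosome M.
mt-Nd3 (chrM:9459-9491, plus strand): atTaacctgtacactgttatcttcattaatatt
Gm28438 (chr1:24613087-24613119, minus strand): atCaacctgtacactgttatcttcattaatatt
Gm29216 differs from mt-Co1 by A1066T over 483 bases, at position 6393 of chromosome M.
mt-Co1 (chrM:6390-6423, plus strand): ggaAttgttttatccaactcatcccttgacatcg
Gm29216 (chr1:24616155-24616188, minus strand): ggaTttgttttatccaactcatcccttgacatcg
Rows for Gm28437, Gm28661 and Gm29216 were in both tables, the row for Gm28438 only in the morula table, and Gm10925 and Gm28439 had no row. Reads are on the row where the authors' pipeline placed them. Within the aligned parts, and apart from the 2 bases shown, reads of a member and its copy have the same sequence; Gm29216 aligned to 31.3% of mt-Co1 and Gm28439 to 63.6% of mt-Nd4. Results are given for the member rows alone and, where the copy changed a call, with the copy's reads added.

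The 10 members all lie on the plus strand of mitochondrial DNA, each as a gene without introns. In order along the circle they are mt-Nd1 (chrM:2751-3707), mt-Nd2 (chrM:3914-4951), mt-Co1 (chrM:5328-6872), mt-Co2 (chrM:7013-7696), mt-Atp6 (chrM:7927-8607), mt-Co3 (chrM:8607-9390), mt-Nd3 (chrM:9459-9806), mt-Nd4 (chrM:10167-11544), mt-Nd5 (chrM:11742-13565) and mt-Cytb (chrM:14145-15288) on GRCm38. mt-Atp6 and mt-Co3 share base 8607, and mt-Atp6 overlaps mt-Atp8 as mt-Nd4 overlaps mt-Nd4l. The messengers differ in how they end. In 7 members the stop codon is complete, and in mt-Nd4, mt-Co3 and mt-Cytb the gene ends in a lone T after its last full codon, which in vertebrate mitochondria is known to be completed to TAA by the poly(A) tail. The last 30 bases of 3 members are shown because mt-Nd5 and mt-Co3 are called below and mt-Cytb is not, and capitals mark the full or partial stop codon.
mt-Nd5 (chrM:13536-13565, plus strand): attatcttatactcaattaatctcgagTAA
mt-Co3 (chrM:9361-9390, plus strand): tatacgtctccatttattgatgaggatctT
mt-Cytb (chrM:15259-15288, plus strand): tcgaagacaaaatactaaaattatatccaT
mt-Nd5 overlaps mt-Nd6, which is read from the other strand, by the bases from 13552 to 13565, and the labels describe no stranded kit, so reads there cannot be assigned.

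Together the 10 members took 1.01, 0.770 and 1.12% of the scaled library in MZ_KO blastocysts, 1.40, 1.39, 0.924 and 0.774% in M_KO, 1.21, 1.49, 1.39 and 1.04% in het and 1.28, 1.08 and 1.56% in WT_flfl. The groups overlapped, and the means were 0.965% ± 0.177 in MZ_KO (SD, n = 3), 1.12% ± 0.319 in M_KO (n = 4), 1.28% ± 0.198 in het (n = 4) and 1.31% ± 0.241 in WT_flfl (SD, n = 3). In morulae the summed share was 1.56 to 2.63% in MZKO, 1.304 to 2.74% in del and 1.13 to 2.01% in het, again with overlap. The highest del value was that of del 6, the morula with the fewest reads (1635553). The division of these reads between the complexes is given next. The 3 complex IV members made up 22.2, 19.99 and 28.7% of the members' reads in MZ_KO blastocysts, against 32.1 to 37.6% in M_KO, 34.7 to 38.7% in het and 31.4 to 39.96% in WT_flfl. Every MZ_KO blastocyst lay below every other blastocyst in this share. The 5 complex I members made up 42.5, 40.8 and 38.5% in MZ_KO, against 29.96 to 35.7% in M_KO, 28.0 to 34.5% in het and 29.6 to 39.3% in WT_flfl, where WT_flfl 9 overlapped with MZ_KO. In morulae the complex IV share was 22.8 to 34.0% in MZKO, 23.2 to 26.7% in del and 38.8, 22.8 and 25.1% in het. Morula het 1, the highest of these, was also the morula with most haemoglobin (1.52%) and granulosa marker RNA (0.265%), whose part was not tested.

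**Figure D1:**
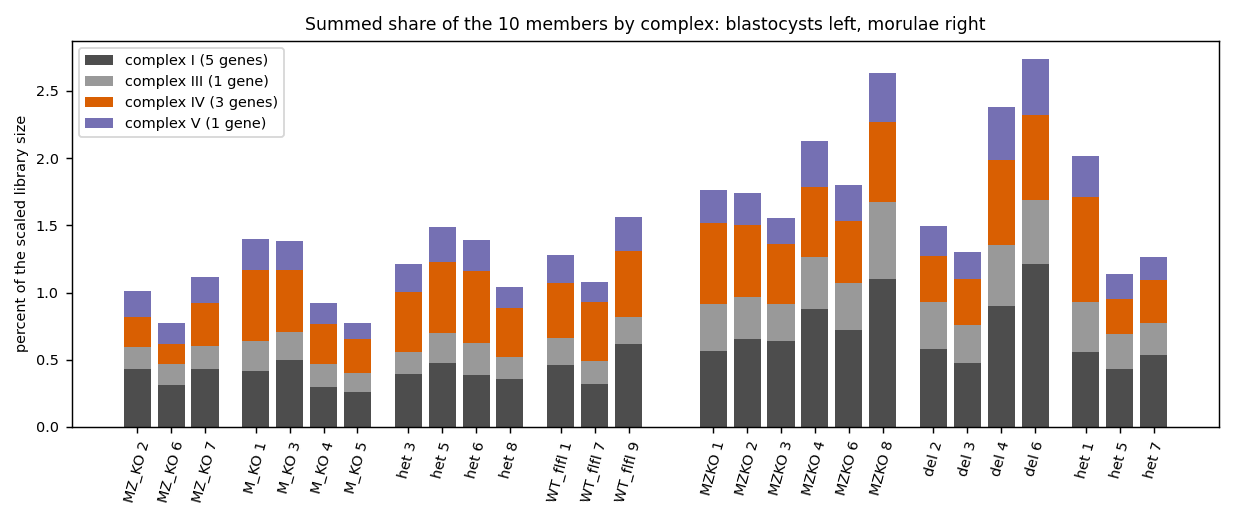
Share of the scaled library size (percent) taken by the 10 members in each embryo, stacked by respiratory complex, with blastocysts on the left and morulae on the right. Among blastocysts the complex IV segment is smallest relative to the whole bar in the 3 MZ_KO embryos, at 19.99 to 28.7% of the members' reads. Reads placed on the rows of nuclear copies are left out.

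Levels per kilobase of gene are given for the member rows alone, without the reads placed on nuclear copies. On these rows mt-Atp6, the proton channel subunit of ATP synthase, was the most abundant member in every group by its mean. It had 2625 ± 352 CPM per kilobase in MZ_KO and 3020.1 ± 700.5 in WT_flfl blastocysts. In WT_flfl blastocysts mt-Nd1 (2634 ± 746), mt-Co2 (2241 ± 433), mt-Cytb (1699 ± 159), mt-Co3 (1267 ± 240.1) and mt-Co1 (1230.0 ± 42.6) followed. The lowest were mt-Nd4 (546 ± 225), mt-Nd2 (465 ± 180.5), mt-Nd5 (438 ± 146) and mt-Nd3 (259 ± 65.8). Neighbours in this order overlapped between embryos except for mt-Co2 and mt-Cytb, mt-Cytb and mt-Co3, and mt-Co1 and mt-Nd4. By the sums with Gm28437 given below, mt-Co3 would stand above mt-Atp6 in WT_flfl blastocysts. On the member rows in MZ_KO blastocysts, mt-Co3 (582 ± 302) and mt-Co1 (524 ± 296) were near mt-Nd2 (488 ± 70.0) and mt-Nd4 (467 ± 79.8). The ranges of these 4 overlapped. Most reads of the mt-Co3 sequence in MZ_KO were on the copy, and with them mt-Co3 would lie above mt-Nd2 and mt-Nd4. In MZKO morulae the order began with mt-Atp6 (4037 ± 943), mt-Cytb (3273 ± 895) and mt-Nd1 (2688 ± 586) and ended with mt-Nd5 (796 ± 253) and mt-Nd3 (606 ± 228). In het morulae the row of mt-Nd3 stood at 32.5 ± 4.89, far below its neighbour mt-Nd5 at 562 ± 202. Most reads of the mt-Nd3 sequence in het morulae were on the row of Gm28438, and the sums of both rows are given below.

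MZ_KO blastocysts were set against WT_flfl first, the pair furthest apart in Ctcf RNA, to ask which mitochondrial transcripts change when CTCF is lost. mt-Co1, mt-Co3 and mt-Nd5 were lower, and the complex III and V members were not called. In count, 3 of the 10 members were lower in MZ_KO and none was higher, against 13.2% of the 9585 genes tested that were called in either direction (1265 genes, 801 of them lower). The median log2 fold change was -0.22 over the members and -0.053 over all genes. Calls are an adjusted p under 0.05 from limma on log2(CPM + 1) with all blastocysts in the fit.

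mt-Co1, the catalytic core subunit that reduces oxygen, had 739, 391 and 1299 CPM in MZ_KO blastocysts, against 2049.9, 2026, 902 and 926 in M_KO, 2252, 2508, 2682 and 1544 in het and 1969, 1838 and 1895 in WT_flfl. Every MZ_KO embryo lay below every het and WT_flfl embryo, and MZ_KO 7 lay above M_KO 4 and M_KO 5. mt-Co1 fell in MZ_KO against WT_flfl (log2 fold change -1.40, SE 0.37, adjusted p = 0.0205) and against het (log2 fold change -1.61, SE 0.35, adjusted p = 0.0048). Against M_KO the difference did not pass (log2 fold change -0.92, SE 0.35, adjusted p = 0.0989). The call against het held in all 7 fits that left out 1 embryo, while the call against WT_flfl held in 1 of 6. It was lost without MZ_KO 2 or 6 or any 1 of the WT_flfl embryos, with a log2 fold change of -0.95 and adjusted p = 0.0944 without MZ_KO 6 and adjusted p no higher than 0.0566 without any other of them. The row of Gm29216, its copy, had 469, 186 and 567.7 CPM in MZ_KO and 954, 801 and 816 in WT_flfl, and fell too (log2 fold change -1.22, SE 0.39, adjusted p = 0.0498). mt-Co1 held 61.2 to 69.6% of the pair's reads in MZ_KO and 67.4 to 69.9% in WT_flfl, and the sum of both gave log2 fold change -1.33, adjusted p = 0.0263.

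mt-Co3, a core subunit without a metal centre that stabilises the enzyme, had 395, 256 and 717 CPM in MZ_KO, against 1745, 835, 817 and 503 in M_KO, 937, 1041, 950.1 and 721 in het and 784, 1048 and 1149 in WT_flfl. Every MZ_KO embryo was below every het and WT_flfl embryo, and MZ_KO 7 was above M_KO 5. mt-Co3 fell against WT_flfl (log2 fold change -1.23, SE 0.36, adjusted p = 0.0341) and het (log2 fold change -1.11, SE 0.34, adjusted p = 0.033), and missed the threshold against M_KO (log2 fold change -1.07, SE 0.34, adjusted p = 0.0502). Each call held in 2 fits that left out 1 embryo, of 6 against WT_flfl and of 7 against het. Leaving out MZ_KO 2 or 6, or WT_flfl 7 or 9, ended the first (adjusted p up to 0.147), and leaving out MZ_KO 2 or 6, or het 3, 5 or 6, the second (adjusted p up to 0.172). In all blastocysts but M_KO 1 most reads of this sequence were on the row of the copy. mt-Co3 held 25.2 to 42.0% of the pair's reads in MZ_KO, 24.3 to 63.3% in M_KO, 24.6 to 38.4% in het and 24.7 to 42.4% in WT_flfl. Gm28437 alone fell as well (log2 fold change -1.15, SE 0.32, adjusted p = 0.0241). With both rows added the levels were 1504, 1016 and 1708 CPM in MZ_KO and 3169.9, 2471 and 3857 in WT_flfl, without overlap, and mt-Co3 was lower in MZ_KO than in WT_flfl (log2 fold change -1.18, adjusted p = 0.00632), het (log2 fold change -1.13, adjusted p = 0.00425) and M_KO (log2 fold change -0.81, adjusted p = 0.0368).

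mt-Co2, which takes electrons from cytochrome c, had 1107, 892 and 1193 CPM in MZ_KO, against 1449, 1722, 1248 and 1066 in M_KO, 1262, 1725, 1751 and 1355 in het and 1296, 1438 and 1865 in WT_flfl. Each MZ_KO value lay below each het and WT_flfl value. The difference did not pass against WT_flfl (log2 fold change -0.52, SE 0.19, adjusted p = 0.0791) or het (log2 fold change -0.51, SE 0.18, adjusted p = 0.0546). It passed once the reads of Gm28661 were added, against WT_flfl (log2 fold change -0.63, adjusted p = 0.0331) and het (log2 fold change -0.61, adjusted p = 0.024). Gm28661 itself had 12.96, 56.2 and 24.4 CPM in MZ_KO and 504, 0.0960 and 0.0979 in WT_flfl, so the reads added in WT_flfl came almost wholly in WT_flfl 1.

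mt-Nd5, a proton-pumping complex I subunit, had 419, 393 and 478 CPM in MZ_KO, against 609.9, 722, 501 and 393 in M_KO, 452, 668, 609 and 487 in het and 769.8, 549 and 1080.2 in WT_flfl. MZ_KO did not overlap with WT_flfl and overlapped with het and M_KO. mt-Nd5 fell against WT_flfl (log2 fold change -0.84, SE 0.24, adjusted p = 0.0272) and did not pass against het (log2 fold change -0.35, SE 0.22, adjusted p = 0.296) or M_KO (log2 fold change -0.34, SE 0.22, adjusted p = 0.351). That call held in 2 of 6 fits that left out 1 embryo. Leaving out MZ_KO 2 or 6, or WT_flfl 1 or 9, ended it, and without WT_flfl 9 the log2 fold change was -0.60 (adjusted p = 0.128). The antisense neighbour mt-Nd6 had 72.1, 50.7 and 66.7 CPM in MZ_KO and 104, 83.5 and 224 in WT_flfl (log2 fold change -0.99, adjusted p = 0.1).

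Besides mt-Co2, the other 6 members did not pass in MZ_KO against WT_flfl. mt-Nd1, at the junction where quinone enters complex I, averaged 2235 ± 458 CPM in MZ_KO and 2521 ± 714 in WT_flfl (95% interval -0.65 to 0.34 for the log2 fold change). mt-Cytb, the quinol-oxidising subunit of complex III, averaged 1626 ± 113 in MZ_KO and 1943 ± 182 in WT_flfl (95% interval -0.64 to 0.13), and its MZ_KO and WT_flfl embryos did not overlap. For mt-Atp6 the averages were 1788 ± 239.5 in MZ_KO and 2057 ± 477 in WT_flfl (95% interval -0.68 to 0.31). The log2 fold changes of mt-Nd2, mt-Nd3 and mt-Nd4 were 0.14, 0.10 and -0.16, and their intervals reached from -0.75 to 0.77. A change within these intervals was not detectable with these embryos. Each of these 6 members except mt-Cytb overlapped between MZ_KO and WT_flfl. In M_KO the ranges were 1543 to 2632 CPM for mt-Nd1, 1398 to 2245 for mt-Cytb and 1226 to 2284 for mt-Atp6. In het they were 2095 to 2765 CPM for mt-Nd1, 1621 to 2338 for mt-Cytb and 1593 to 2621 for mt-Atp6. The MZ_KO embryos overlapped with both groups for these members.

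**Figure D2:**
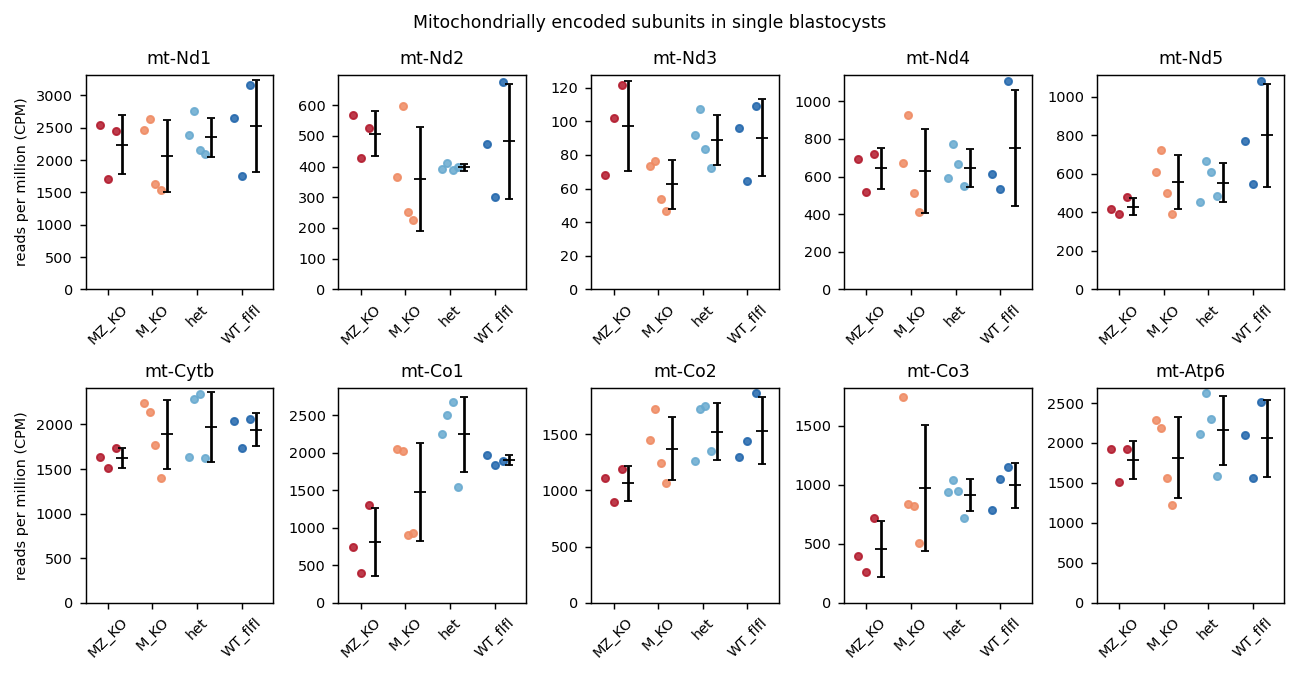
Level of each member in reads per 1000000 (CPM) in 14 single blastocysts, 1 point per embryo, with the mean and SD of each group in black beside the points. The MZ_KO points lie below all het and WT_flfl points for mt-Co1, mt-Co2 and mt-Co3, and overlap with them for mt-Nd1, mt-Nd2, mt-Nd3, mt-Nd4 and mt-Atp6. For mt-Nd5 and mt-Cytb they lie below the WT_flfl points and overlap with het. On the member rows mt-Co2 and mt-Cytb were not called. How many of all genes separate in this way was not counted.

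Against het, 2 of the 10 members were lower in MZ_KO (mt-Co1 and mt-Co3, above) and none was higher, against 17.9% of the genes tested. The median over the members was -0.26, and -0.063 over all genes. Against M_KO, 0 members passed in limma, 3 of the 10 had an unadjusted p under 0.05 and 0 passed with voom weights, against 11.8% of the genes tested. The 3 were mt-Nd3 (0.62), mt-Co1 (-0.92) and mt-Co3 (-1.07). MZ_KO and M_KO share the title prefix, while het and WT_flfl carry another, so prefix and genotype cannot be told apart in the comparisons with het and WT_flfl. These 3 comparisons share the MZ_KO embryos.

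The MZ_KO blastocysts also differed in lineage markers. Over all genes tested against WT_flfl, 13.2% were called. Of 14 tested trophectoderm markers 6 were lower in MZ_KO than in WT_flfl and none was higher, and the summed share of all 15 listed was 0.441 to 0.577% in MZ_KO, against 0.666 to 1.07% in M_KO, 0.563 to 0.899% in het and 0.824 to 0.861% in WT_flfl. Of 11 tested epiblast markers 3 were higher and 2 lower. The summed share of those listed was 0.474 to 0.553% in MZ_KO and 0.315 to 0.347% in WT_flfl. Much of that sum was Dppa3, which averaged 3813 ± 540 CPM in MZ_KO and 1792 ± 118 in WT_flfl. Spp1, among the lower markers, averaged 69.6 ± 36.2 in MZ_KO and 566 ± 129 in WT_flfl. Of 10 tested primitive endoderm markers 3 were lower in limma, and 1 was called with voom weights. Their part in the lower complex IV transcripts was not tested. Haemoglobin RNA was 0.164 to 0.743% in MZ_KO and 0.0998 to 3.43% in WT_flfl, and without WT_flfl 1 and het 6, the embryos with most of it, 0 members were called against WT_flfl and 1 against het. The log2 fold changes were then -1.37 for mt-Co1, -1.39 for mt-Co3 and -0.84 for mt-Nd5 against WT_flfl, and -1.51 for mt-Co1 and -1.09 for mt-Co3 against het, close to those with all embryos. Of 12 granulosa markers 8 had no row in the blastocyst table.

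M_KO blastocysts, in which Ctcf RNA was near the het level, were compared with WT_flfl and het. In limma 0 members passed against WT_flfl (0 of 9585 genes, 0%; unadjusted p under 0.05 for 1 member and 494 genes; 0 genes with voom weights). Against het 0 members passed (0%; unadjusted p under 0.05 for 2 members and 638 genes; 0 genes with voom weights). The median log2 fold change over the members was -0.26 against WT_flfl and -0.19 against het. Each of the 10 log2 fold changes against WT_flfl was negative, between -0.51 for mt-Nd3 and -0.061 for mt-Cytb. M_KO 1 and M_KO 3 were higher than M_KO 4 and M_KO 5 for all 10 members, for mt-Co1 by more than any difference between WT_flfl embryos. In het against WT_flfl 0 members passed (0%; unadjusted p under 0.05 for 1 member, mt-Nd5, and for 187 genes; 0 genes with voom weights), and the log2 fold changes ran from -0.49 to 0.21.

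In morulae a single member stood out. mt-Nd3, a small complex I subunit at the joint of its arms, was at 113 at the lowest, 220.5 at the median and 308 at the highest CPM in the 6 MZKO morulae, against 12.6, 6.74, 19.98 and 29.6 in del and 11.2, 9.68 and 13.1 in het. The lowest MZKO embryo was above the highest del and het embryo. mt-Nd3 was the 1 member of 10 called, higher in MZKO against het (log2 fold change 4.02, SE 0.43, adjusted p = 3.97e-05), where 0.482% of the 9953 genes tested were called, and against del (log2 fold change 3.62, SE 0.39, adjusted p = 3.56e-05), where 0.181% were. Both calls held in all fits that left out 1 embryo, 9 against het and 10 against del, so also without MZKO 1, which had most oviduct marker RNA (0.272%), and het 1. The median log2 fold change over the 10 members was 0.44 against het and -0.069 against del, beside -0.021 and 0.016 over all genes.

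The row of its nuclear copy was the mirror image. Gm28438 had 0, 1.89, 0, 0, 0 and 0 CPM in the 6 MZKO morulae, against 139, 166, 186 and 412 in del and 179, 117 and 167 in het. mt-Nd3 thus held 98.96 to 100% of the pair's reads in MZKO, 3.90 to 9.70% in del and 5.88 to 7.65% in het. Added together, the 2 rows gave 113 at the lowest, 221 at the median and 308 at the highest CPM in MZKO, against 152, 173, 206 and 442 in del and 189.7, 127 and 181 in het, and all 3 groups overlapped. On the sum mt-Nd3 was not called against het (log2 fold change 0.28, SE 0.36, adjusted p = 0.894) or del (log2 fold change -0.16, SE 0.33, adjusted p = 0.917). The member and the copy differ by T3C, shown above. The split of the reads went with the title prefix, C50 for MZKO and N2 for del and het. In this split del lay with het, and the Ctcf level of del overlapped with that of MZKO. Prefix and the MZKO label cannot be told apart, and the cause of the split was not tested. In blastocysts, where Gm28438 had no row, mt-Nd3 was at 68.3 to 121 CPM in MZ_KO and 64.7 to 109 in WT_flfl.

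**Figure D3:**
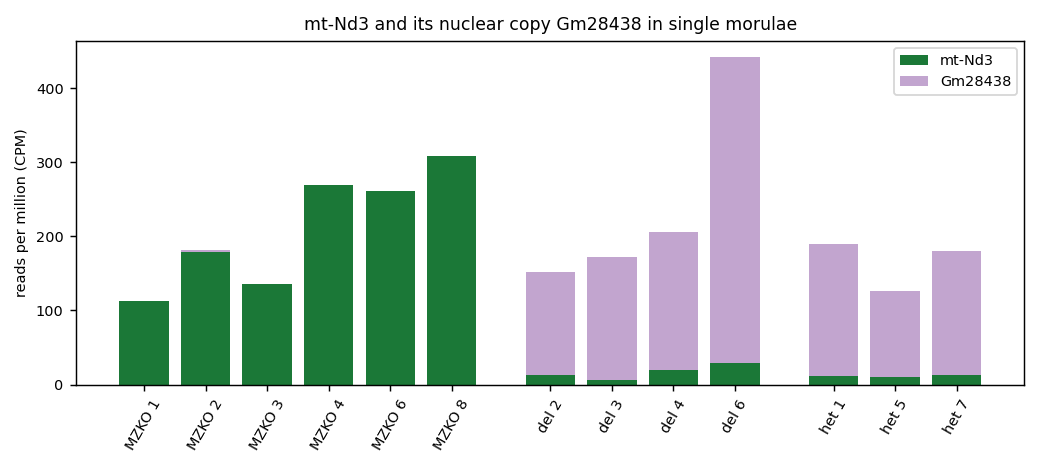
Reads per 1000000 (CPM) on the rows of mt-Nd3 and of its nuclear copy Gm28438, stacked, in each of 13 morulae. The 6 MZKO bars are almost wholly mt-Nd3, and the del and het bars are almost wholly Gm28438, with at most 9.70% mt-Nd3, while the heights of the 3 groups overlap.

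The other 9 members did not pass in any morula comparison. mt-Nd2, another proton-pumping complex I subunit, was at 825 at the lowest, 1441 at the median and 2380.3 at the highest CPM in MZKO, against 1015, 1003, 1827 and 2384 in del and 812, 781 and 917 in het. All 3 het embryos lay below all del embryos and below 5 of the 6 MZKO embryos, yet neither MZKO against het (log2 fold change 0.77, SE 0.34, adjusted p = 0.519) nor del against het (log2 fold change 0.80, SE 0.36, adjusted p = 0.936) passed. mt-Co1 was at 2012 at the lowest, 2703 at the median and 4087 at the highest CPM in MZKO, against 2131, 1291, 3819.7 and 1538 in del and 4964, 1088 and 1104 in het, where het 1 was above every other morula (log2 fold change 0.65, SE 0.43, adjusted p = 0.743 against het). mt-Co3 was at 124 at the lowest, 902 at the median and 1579 at the highest in MZKO, against 246, 1024, 572 and 2636 in del and 926, 474 and 702 in het, with 3.27 to 61.1% of the pair's reads on the member's row in MZKO and 10.6 to 88.6% in del. In del against het 0 members were called in limma, 1 had an unadjusted p under 0.05 (mt-Nd2) and 0 passed with voom weights, against 0.01% of the genes tested.

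mt-Nd5 was at 1171 at the lowest, 1253 at the median and 2365 at the highest CPM in MZKO, 759 to 2132 in del and 749.8 to 1444 in het. mt-Cytb was at 2756 at the lowest, 3506 at the median and 5682 at the highest CPM in MZKO, 2806 to 4761 in del and 2393 to 3679.5 in het. mt-Atp6 was at 1929 at the lowest, 2571 at the median and 3607 at the highest CPM in MZKO, 2004 to 4129 in del and 1749 to 3051 in het. All 3 groups overlapped for each of these members. mt-Nd1 ranged over 1821 to 3302 CPM in MZKO, 1666 to 4313 in del and 1433 to 2239.8 in het. mt-Nd4 ranged over 1454 to 2664 CPM in MZKO, 1313 to 3277 in del and 1291 to 1494 in het. mt-Co2 ranged over 1047 to 1785 CPM in MZKO, 1097 to 2173 in del and 1027 to 1927 in het, likewise with overlap of all groups. Without the called mt-Nd3, the log2 fold changes of MZKO against het ran from 0.042 to 0.77, and those against del from -0.17 to 0.51.

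**Figure D4:**
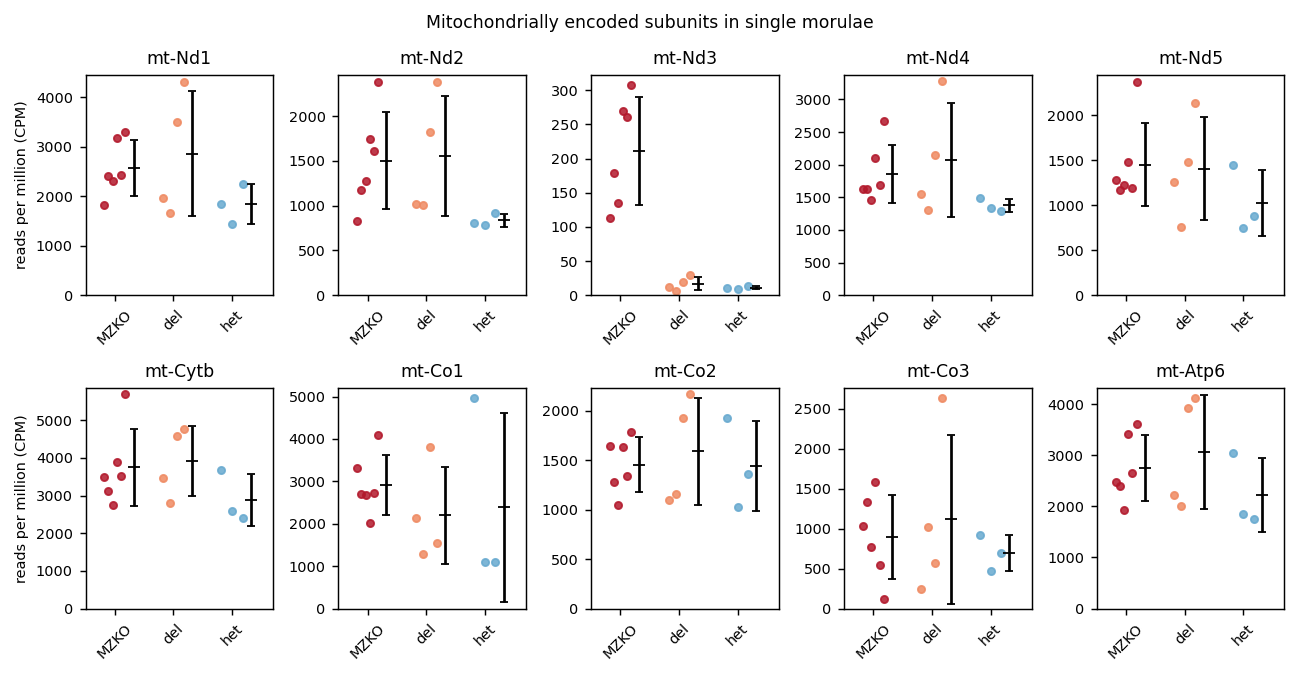
Level of each member in reads per 1000000 (CPM) in 13 single morulae, 1 point per embryo, with the mean and SD of each group in black. mt-Nd3 is the member whose MZKO points (113 to 308 CPM) are clear of the del and het points (6.74 to 29.6 and 9.68 to 13.1 CPM). The points are the member rows alone, and with the reads of Gm28438 added the groups overlap for mt-Nd3.

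The effect of the MZ knockout against het was then compared between the stages, each effect taken within its own table. Of the 10 members 2 differed, mt-Nd3 (difference of log2 fold changes -3.92, SE 0.50, adjusted p = 8.75e-05) and mt-Co1 (difference -2.26, SE 0.56, adjusted p = 0.0238), against 2.11% of 8572 genes. mt-Co1 was -1.61 in blastocysts and 0.65 in morulae on the log2 scale. With the copies added mt-Co1 still differed (-2.04, adjusted p = 0.0459) and mt-Nd3 did not (-0.17, adjusted p = 0.866). The mt-Co1 call held in 13 of 16 fits that left out 1 embryo and was lost without blastocyst MZ_KO 6, morula het 5 or morula het 7 (adjusted p up to 0.163). All 10 differences were negative on the member rows, with a median of -0.60 over the members and 0.012 over all genes. The members share the same embryos, so the 10 signs are not independent observations. Stage and sequencing batch cannot be told apart here. Title prefix and genotype cannot be told apart in either of the effects subtracted.

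**Figure D5:**
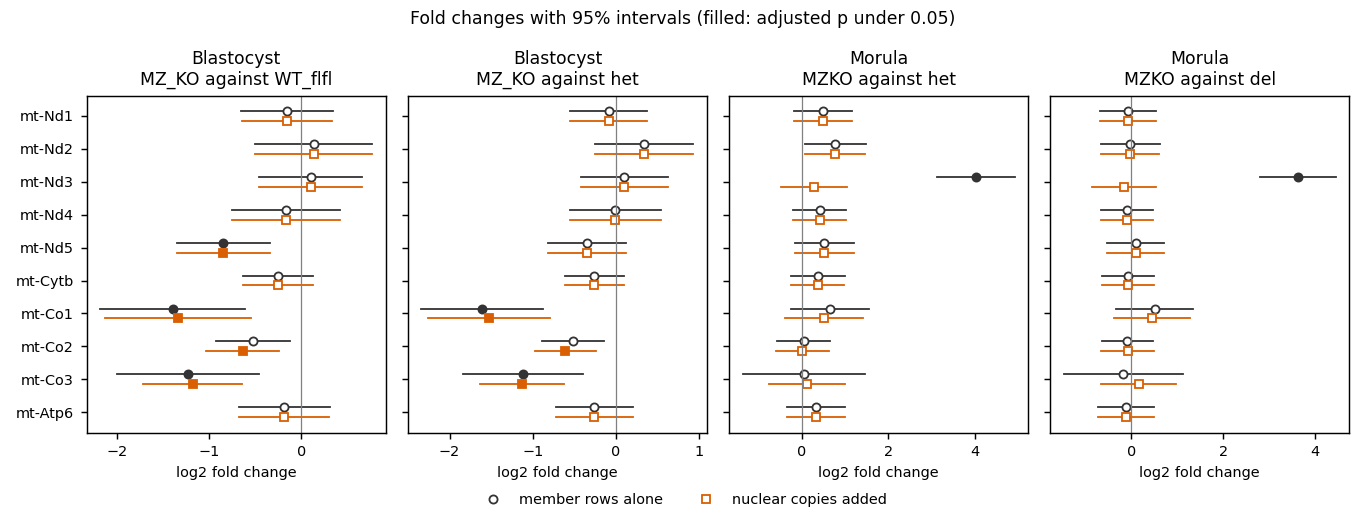
Log2 fold change of each member with its 95% interval in 4 comparisons, from the member rows alone (circles) and with the reads of nuclear copies added (squares); filled symbols have an adjusted p under 0.05. mt-Nd3 in morulae loses its call when the copy is added, while mt-Co1 and mt-Co3 in blastocysts keep theirs and mt-Co2 gains it.

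The nuclear genes of the same pathway were read in the same fits, first for the subunits that are built into the same complexes. In MZ_KO blastocysts against WT_flfl, 2 of 36 nuclear complex I genes were higher and 6 lower (median log2 fold change 0.030), beside the 13.2% called over all genes. Ndufb7, an accessory complex I subunit, averaged 21.1 ± 3.21 CPM in MZ_KO and 116 ± 2.07 in WT_flfl (log2 fold change -2.42, SE 0.20, adjusted p = 1.37e-06). Ndufb10, also accessory, averaged 46.0 ± 13.7 in MZ_KO and 126 ± 19.3 in WT_flfl, while Ndufs8, a core iron-sulphur subunit, averaged 289 ± 30.2 in MZ_KO and 184 ± 16.8 in WT_flfl and was higher. Of 9 complex III genes 1 was lower, Uqcrc1, a core protein, with 739 ± 109 CPM in MZ_KO and 1149 ± 62.6 in WT_flfl (log2 fold change -0.64, SE 0.14, adjusted p = 0.007). Of 17 complex V genes 2 were lower, among them Atp5a1, the alpha subunit of the catalytic head, with 1172 ± 169 in MZ_KO and 1716 ± 167 in WT_flfl.

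None of 11 nuclear complex IV genes was called in limma in MZ_KO against WT_flfl, beside 13.2% of all genes tested (0 with an unadjusted p under 0.05, 0 with voom weights, median log2 fold change -0.019). Of the 3 members of that complex, 2 were lower. Against het, 0 of the 11 were called, beside 17.9% of all genes tested (1 with an unadjusted p under 0.05, 0 with voom weights, median 0.22). Of 4 complex II genes, none of which mitochondrial DNA encodes, 0 were called against WT_flfl in limma (3 with an unadjusted p under 0.05, 0 with voom weights, median -0.40). Of 37 assembly factors 4 were higher and 4 lower against WT_flfl (8 called with voom weights), beside the 13.2% called over all genes. Tmem70, which helps to assemble ATP synthase, averaged 249 ± 28.1 CPM in MZ_KO and 129 ± 13.0001 in WT_flfl, and Ndufaf3, a complex I assembly factor, averaged 6.58 ± 2.17 in MZ_KO and 25.1 ± 3.21 in WT_flfl.

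Genes that act on mitochondrial DNA and its RNA came next. Of 8 genes of mitochondrial transcription 0 were called in limma in MZ_KO against WT_flfl (2 with an unadjusted p under 0.05, 0 with voom weights). Of 20 genes that maintain mitochondrial DNA, 4 were lower and none was higher in limma, and 2 were called with voom weights. Over all genes tested in that comparison, 13.2% were called in limma. Atad3a, a membrane ATPase of nucleoids, averaged 115 ± 24.6 CPM in MZ_KO and 215 ± 9.58 in WT_flfl (log2 fold change -0.91, SE 0.19, adjusted p = 0.00568), and Top1mt, the mitochondrial topoisomerase, was near the floor of detection at 0.135 ± 0.234 in MZ_KO, against 9.13 ± 3.49 in WT_flfl. Of 8 genes of mitochondrial biogenesis 1 was lower, the coactivator Ppargc1b, with 7.37 ± 3.07 CPM in MZ_KO and 29.1 ± 7.72 in WT_flfl (log2 fold change -1.88, SE 0.43, adjusted p = 0.00817).

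Of 32 genes of mitochondrial RNA processing and stability 2 were higher and 4 lower in MZ_KO than in WT_flfl. With voom weights 5 were called, and over all genes tested there 13.2% were called in limma. Mrm1, which methylates mitochondrial ribosomal RNA, averaged 2.42 ± 2.10 CPM in MZ_KO and 27.7 ± 11.8 in WT_flfl (log2 fold change -3.27, SE 0.55, adjusted p = 0.0011). Lrpprc, which keeps mitochondrial messengers stable and polyadenylated, averaged 115 ± 18.8 in MZ_KO and 204 ± 37.5 in WT_flfl blastocysts (log2 fold change -0.81, SE 0.24, adjusted p = 0.0338). In morulae Lrpprc averaged 212 ± 66.7 CPM in MZKO and 80.9 ± 28.0 in het (log2 fold change 1.38, SE 0.29, adjusted p = 0.0387). It was the 1 gene of all these pathway lists called in that comparison, and 0 were called with voom weights. Its effect differed between the stages (difference -1.96, SE 0.37, adjusted p = 0.00278), in the same direction as that of mt-Co1. Lrpprc was not called in MZKO against del, and whether it is linked to mt-Co1 was not tested.

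Across embryos the members moved together to different degrees. All r given here use the member rows alone, so they also carry the split of mt-Co3 and morula mt-Nd3 reads with their copies. The part of that split was not tested. Between pairs of members Pearson's r of log2(CPM + 1) had a median of 0.664 over the 14 blastocysts (from -0.015 to 0.893) and 0.524 over the 13 morulae (from -0.243 to 0.934), as a description over embryos that share libraries and depth. The r of a member with the mean of all 10, which includes it, was lowest for mt-Co3 in morulae (0.213) and for mt-Nd3 in blastocysts (0.57), and highest for mt-Atp6 in blastocysts (0.924). Among 8549 nuclear genes the 5 whose levels were most like that mean at both stages were Nsun3 (smaller of both r 0.680), Zmym4 (0.670), Tmx3 (0.650), Gpcpd1 (0.629) and Prkcd (0.583).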

How the data were processed

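Single mouse embryos were sequenced from polyadenylated RNA with a SMART-Seq kit, per the labels. Reads were processed with cutadapt 1.14, Bowtie2 2.2.9 and RSEM 1.3.1 on GRCm38/mm10, per the submitters' processing notes; settings are not given in the sources used here. RSEM divides reads that match several places between them by a model, so near-identical rows can trade reads. The authors deposited 1 table per stage in log2 units, and 100% of values came back as whole reads (tolerance 0.01) after undoing the log2 of reads plus 0.5 per 1000000 of a scaled library. Blastocyst and morula tables were scaled separately. Of 28 samples 27 had a column. The other, a repeat library of blastocyst het 3 in the sequencing batch of the morulae, was not analysed here. Of the gene rows 15575 of 15582 for blastocysts and 16731 of 16745 for morulae matched the annotation by identifier; 3 blastocyst entries that name no mouse gene (0.00273% to 0.0114% of reads) were left out.

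Levels are CPM of the scaled library. Tests used limma 3.58.1 (R 4.3.3) with a trend on log2(CPM + 1), a pseudocount that understates the change of low genes. Genes entered if 3 or more embryos of the stage had 10 CPM or more, all groups of a stage shared 1 fit, and p-values were adjusted by Benjamini-Hochberg over all genes tested. The stage difference subtracted the log2 fold changes of both fits, with their errors added in quadrature, over genes tested in both. A log-scale test was used because the deposited values are log2 values and not counts; voom weights on the recovered reads served as an alternative, beside other pseudocounts, no filter, other library sizes, the deposited values, added copies, fewer groups, a replicate block and leaving out embryos. The procedure was tested on simulated data. Named genes were all members, their copies and, per list and comparison, at most 4 called genes with the smallest adjusted p. The summed shares with copies added or embryos left out were chosen after seeing the data. Copies were found with BLAST at 90% identity over 100 bases, and sequences are from GENCODE M21. The members, lists and tests were chosen with earlier results of these data known. Depth was 1635553 to 27884350 reads per embryo, and no molecular identifiers are described, so reads are not independent molecules.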

Additional observations from a re-analysis of the deposited data

Results flagged for a closer look

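In MZKO morulae mt-Nd5 stood at 2365 CPM in embryo 8, against 1171 to 1479 CPM in the other 5, a gap that is large for the range of the group. Such a gap was looked for in 44 groups of values and is found by chance in about 1 group in 20, so 1 among 44 is no more than chance gives.

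The effect of the MZ knockout against het on mt-Nd3 differed between the stages by -3.92 on the log2 scale (blastocyst minus morula, adjusted p = 8.75e-05), with 0.10 in blastocysts and 4.02 in morulae. It was -0.17 (adjusted p = 0.866) once the morula row of Gm28438 was added to mt-Nd3. The effect on mt-Co1 differed by -2.26 (adjusted p = 0.0238), with -1.61 in blastocysts and 0.65 in morulae, and by -2.04 (adjusted p = 0.0459) with Gm29216 added. Stage and sequencing batch cannot be told apart in either, nor can title prefix and genotype within each stage.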

How the results depend on the processing

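Calls in MZ_KO blastocysts rest on 3 or 4 embryos a group and several sit near the threshold, so the number of members called moved with single choices. Of 1820 member results under other settings 1681 kept direction and side of the threshold, 30 lost a call, 11 gained 1 and 98 changed sign, 80 of these by leaving out 1 embryo. Of the 98, 97 were called under neither setting, with sizes of at most 0.24 as reported and 0.41 under the other setting. The cause was not tested. No scaling moved the median of all genes by more than 0.1.

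With copies added the members called were 1 for the difference between the stages, 1 against M_KO, 0 in morula MZKO against het and 0 against del. Without the embryos with most haemoglobin RNA they were 0 against WT_flfl, 1 against het and 1 for the difference between the stages. With those 2 embryos fewer the log2 fold changes of the calls lost were -1.37 (mt-Co1), -1.39 (mt-Co3) and -0.84 (mt-Nd5) against WT_flfl and -1.09 (mt-Co3) against het, and the stage difference of mt-Co1 was -2.16, close to the values with all embryos. A pseudocount of 5 CPM gave 1 against M_KO, and no filter gave 1 against het. Leaving out 1 embryo gave 0 to 3 against WT_flfl, 1 to 2 against het, 0 to 2 against M_KO and 1 to 2 for the difference between the stages. Over all genes limma called 48 in morula MZKO against het, 18 against del and 1 in del against het, and voom called 24, 2 and 0. Adding copies, chosen after seeing the data, raised the mean summed share to 1.61% in het and 1.63% in WT_flfl blastocysts.

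Other changes of sign were as follows. Het against WT_flfl gave 0.017 for mt-Co2 and 0.022 for mt-Nd3 with the read total, and 0.017 and 0.021 with reads outside mitochondrial DNA, as library size. With voom weights mt-Cytb gave -0.0071 in het against WT_flfl, mt-Nd2 0.0049 in morula MZKO against del and mt-Nd4 0.0070 in MZ_KO against het. With copies added mt-Co3 gave 0.16 and mt-Nd3 -0.16 in morula MZKO against del, and mt-Co3 -0.039 in del against het. Without the embryos with most haemoglobin RNA mt-Cytb gave 0.027 and mt-Nd5 0.040 in M_KO against het, mt-Nd4 0.015 in MZ_KO against het, and mt-Cytb -0.052, mt-Nd1 0.027 and mt-Nd3 0.086 in het against WT_flfl. With a replicate block on the title number mt-Co3 gave 0.31 and mt-Nd5 -0.062 in morula MZKO against del, and the block changed no call among 20 member results. Deviations of same-numbered embryos from their group means correlated at -0.144 and -0.12 between M_KO and het. Between MZKO and del they correlated at 0.0848, -0.12, -0.0403 and 0.14, and 2 of 4 numbers were best with their own. So few numbers cannot show whether the title numbers pair the embryos.

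The lowest and highest log2 fold changes over fits that left out 1 embryo are given for members whose sign changed in at least 1 of them. In blastocyst MZ_KO against WT_flfl these ranges were mt-Nd1 -0.39 to 0.031, mt-Nd2 -0.17 to 0.42, mt-Nd3 -0.12 to 0.33 and mt-Nd4 -0.37 to 0.15. In blastocyst MZ_KO against het these ranges were mt-Nd1 -0.19 to 0.098, mt-Nd3 -0.075 to 0.34 and mt-Nd4 -0.093 to 0.14. In blastocyst MZ_KO against M_KO these ranges were mt-Nd4 -0.10 to 0.28 and mt-Atp6 -0.16 to 0.14. In blastocyst M_KO against WT_flfl these ranges were mt-Nd4 -0.45 to 0.074, mt-Cytb -0.15 to 0.076 and mt-Co3 -0.49 to 0.11. In blastocyst M_KO against het these ranges were mt-Nd4 -0.29 to 0.096, mt-Nd5 -0.15 to 0.14, mt-Cytb -0.15 to 0.074 and mt-Co3 -0.37 to 0.23. In blastocyst het against WT_flfl these ranges were mt-Nd1 -0.31 to 0.12, mt-Nd2 -0.51 to 0.074, mt-Nd3 -0.22 to 0.15, mt-Nd4 -0.37 to 0.16, mt-Cytb -0.087 to 0.089, mt-Co2 -0.12 to 0.14 and mt-Atp6 -0.11 to 0.23. In morula MZKO against het these ranges were mt-Co2 -0.18 to 0.28 and mt-Co3 -0.21 to 0.54. In morula MZKO against del these ranges were mt-Nd1 -0.29 to 0.16, mt-Nd2 -0.21 to 0.21, mt-Nd4 -0.29 to 0.15, mt-Nd5 -0.17 to 0.32, mt-Cytb -0.22 to 0.039, mt-Co2 -0.24 to 0.086, mt-Co3 -0.73 to 0.41 and mt-Atp6 -0.30 to 0.051. Leaving out del 6, the embryo with the fewest reads, changed the sign of each of these except mt-Nd5. In morula del against het these ranges were mt-Co1 -0.22 to 0.87, mt-Co2 -0.092 to 0.36 and mt-Co3 -0.36 to 0.77.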
